A study of Mus musculus with 12 samples.

Results

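Imprinted genes are transcribed mainly from the chromosome of 1 parent, and 39 such genes outside the Grb10, Dlk1-Meg3 and Igf2r loci were followed in mouse embryonic stem cells (ESCs) and in the embryoid bodies (EBs) made from them. They were taken by name, as array features carrying that gene symbol alone, from the 19938 genes of the series. Of the 39, 33 had such a feature, 28 passed a signal of 45 (log2 5.49) on at least 1 of the 12 arrays and were tested, and 17 passed it on all 12. Snrpn, Gnas and Ube3a lay only on features shared with other symbols, and H19, Kcnq1ot1 and Zrsr1 had none under their symbol, so these 6 were not analysed here. Kcnq1, Ascl2, Usp29, Nap1l5 and Rasgrf1 stayed below the floor on every array.

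Transcripts were measured on single-channel arrays in HP1βKO cells (Cbx1-/-), HP1αKO cells (Cbx5-/-) and wild-type (WT) cells, as day 7 EBs and as ESCs, with 2 arrays for each of the 6 groups. ESCs were grown on mitotically arrested mouse embryonic fibroblasts and sorted for the surface antigen SSEA1 before RNA was taken or EBs were formed in suspension in medium lacking leukaemia inhibitory factor. The WT cells are of the HM1 line by label and both knockouts of the R1 line, so by these labels knockout and line cannot be told apart against WT, whereas HP1βKO against HP1αKO compares cells of 1 named line. The study's methods instead name HM1 as the littermate control of both knockouts, and the sources used here do not settle which holds. The labels call the arrays biological replicates but do not say whether these were separate cultures, so the p-values measure the spread between these arrays, which may be technical.

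At an imprinted cluster a control region carries DNA methylation on the allele of 1 parent, laid down in the germ line. After fertilisation ZFP57 binds the methylated copy at the hexamer TGCCGC and brings KAP1 (Trim28), SETDB1, HP1 proteins and DNA methyltransferases, which keep the mark through cell divisions. HP1α and HP1β bind methylated histone H3 through their chromodomains. Many imprinted genes act on fetal and placental growth, and in ESC cultures their expression is known to be variable. The arrays read the sum of both alleles, so no value below says which allele was transcribed, and in these mixed cultures fewer cells of a type and less RNA per cell cannot be told apart.

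The targeted genes were read in every library. Cbx1 lay at 7.73 and 7.67 in EB HP1βKO, 9.65 and 9.65 in EB HP1αKO and 9.36 and 9.45 in EB WT. The ESC levels of Cbx1 were 7.59 and 7.99 in ESC HP1βKO, 10.05 and 9.63 in ESC HP1αKO and 9.45 and 10.01 in ESC WT. Cbx5 lay at 9.20 and 9.21 in EB HP1αKO, 10.26 and 10.31 in EB HP1βKO and 10.36 and 10.40 in EB WT. Among ESCs it went against the labels, with 8.04 in the library labelled HP1αKO 1 but 10.0 in that labelled HP1αKO 2, and 9.66 in that labelled WT 1 but 8.29 in that labelled WT 2. In ESC HP1βKO it read 9.72 and 9.88. The sources used here do not say whether the Cbx5 feature lies in the part deleted. Counts of calls between ESC genotypes are therefore given with and without the libraries labelled WT 2 and HP1αKO 2. So are the differences of some genes, but the counts of EBs against ESCs are not given without both. All 8 pluripotency markers passed the floor in all ESC libraries and were lower in EBs of each genotype. Over all genes tested, the SD of the replicate difference was 0.39 to 0.57 in ESC groups and 0.13 to 0.20 in EB groups, and the array medians lay between 7.10 and 7.35.

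In EBs lacking HP1β, 15 of the 28 imprinted genes tested differed from EB WT, 12 of them higher and 3 lower. Over all genes tested 18.8% differed, 9.42% higher and 9.36% lower, whereas 53.6% of the tested imprinted genes did. Their median difference was 0.24 (log2), against -0.01 over all genes. Alleles were assigned from a list, and for Ddc, Osbpl5 and Dcn the assignment comes from certain tissues. Of 16 genes listed as paternally expressed 8 were higher and 2 lower, and of 12 listed as maternally expressed 4 were higher and 1 lower. In EBs lacking HP1α, 11 of 28 differed from EB WT, 7 higher and 4 lower, which is 39.3% against 12.1% of all genes (7.04% higher and 5.09% lower), with a median of 0.06 against 0.03. With any 1 array left out the HP1αKO count was 6 to 8, lowest without EB HP1αKO 1, and it was 7 without HP1αKO 2 or WT 1. With 1 spread shared over all 12 arrays, the calls numbered 3 in HP1βKO (Ddc, Osbpl5 and Zim1) and 1 in HP1αKO (Phlda2), so the other calls against EB WT, those of Plagl1 included, rest on the smaller spread of the EB arrays. Both comparisons share the EB WT arrays. Differences are log2 values with limma's standard error from 2 arrays per group, and p-values are two-sided and adjusted over all genes tested.

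**Figure D1:**
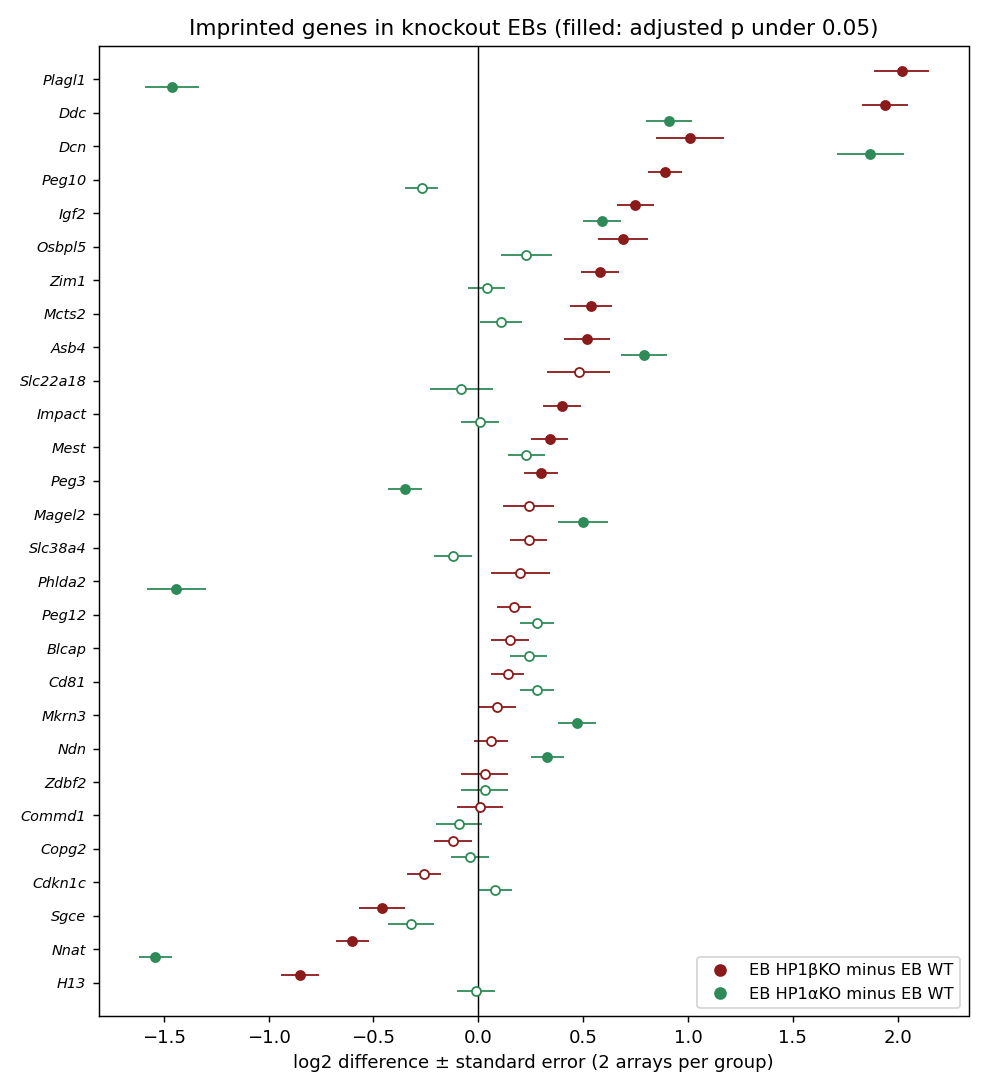
Log2 differences of the 28 tested imprinted genes in EB HP1βKO (red) and EB HP1αKO (green) from EB WT, with standard errors (2 arrays per group) and filled points where the adjusted p is under 0.05. Plagl1 lies at 2.02 in HP1βKO and at -1.46 in HP1αKO, and the scale runs from H13 (-0.85 in HP1βKO) at the bottom to Plagl1 at the top.

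Plagl1, a paternally expressed zinc finger transcription factor known in mouse for activating other imprinted genes, had the largest rise in HP1βKO EBs and a fall in HP1αKO EBs second to that of Nnat. Its log2 signal was 10.52 and 10.28 in EB HP1βKO, 6.84 and 7.02 in EB HP1αKO and 8.27 and 8.5 in EB WT. The groups did not overlap, and WT EBs lay between the knockouts. Plagl1 rose 4.05-fold in EB HP1βKO (2.02 ± 0.13, adjusted p = 5.47e-05) and fell 2.75-fold in EB HP1αKO (-1.46 ± 0.13, adjusted p = 0.000629). Between the knockouts, whose line is named alike, HP1βKO lay 11.1-fold higher (3.48 ± 0.13, adjusted p = 4.48e-06).

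Nnat, the paternally expressed proteolipid neuronatin, was lower in EBs of both knockouts. It read 7.85 and 7.82 in EB HP1βKO, 6.88 and 6.92 in EB HP1αKO and 8.39 and 8.49 in EB WT. It fell by 0.60 in HP1βKO (± 0.08, adjusted p = 0.00250) and by 1.54 in HP1αKO (± 0.08, adjusted p = 0.000116). Blcap, the gene whose intron holds Nnat, read 7.05 and 7.11 in EB HP1βKO, 7.22 and 7.12 in EB HP1αKO and 6.97 and 6.89 in EB WT, and passed the test in neither knockout (0.15 ± 0.09 and 0.24 ± 0.09).

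Mcts2 and H13 are likewise a nested pair. Mcts2, a paternally expressed retrogene copied from Mcts1, lies in an intron of H13, a signal peptide peptidase whose full-length transcripts come mainly from the maternal allele in mouse. Mcts2 read 9.42 and 9.23 in EB HP1βKO, 8.88 and 8.90 in EB HP1αKO and 8.71 and 8.86 in EB WT. H13 read 7.81 and 7.76 in EB HP1βKO, 8.64 and 8.63 in EB HP1αKO and 8.57 and 8.71 in EB WT. Thus HP1βKO EBs stood apart from both other groups in each gene, in opposite directions. Mcts2 rose by 0.54 ± 0.10 (adjusted p = 0.0101) and H13 fell by 0.85 (± 0.09, adjusted p = 0.000580) against EB WT. Against EB HP1αKO the differences were 0.43 ± 0.10 (adjusted p = 0.0229) and -0.85 ± 0.09 (adjusted p = 0.000490). In HP1αKO EBs neither gene passed (0.11 ± 0.10 and -0.01 ± 0.09). Mcts1, whose transcript could share probes with its retrogene, read 6.43 and 6.23 in EB HP1βKO, 6.43 and 6.62 in EB HP1αKO and 6.51 and 6.83 in EB WT, with HP1βKO below WT. The sources used here do not say which H13 transcripts its feature reads.

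The start regions of these genes are shown because the methylated control region of Mcts2, Plagl1 and Nnat is known to lie at their own promoter in mouse. Each window covers 250 bases before and 50 after the start in RefSeq on GRCm38.p6, read 5′ to 3′ on the gene's strand, with the hexamer TGCCGC or its reverse complement GCGGCA in capitals.
Mcts2, chr2:152686898-152687197 (+ strand): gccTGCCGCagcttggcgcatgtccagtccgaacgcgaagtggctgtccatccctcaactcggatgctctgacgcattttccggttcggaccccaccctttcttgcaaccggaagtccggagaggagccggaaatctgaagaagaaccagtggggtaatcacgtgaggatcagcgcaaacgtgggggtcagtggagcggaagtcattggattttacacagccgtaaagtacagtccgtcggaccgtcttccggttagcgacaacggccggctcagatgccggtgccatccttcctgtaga
H13, chr2:152669211-152669510 (+ strand): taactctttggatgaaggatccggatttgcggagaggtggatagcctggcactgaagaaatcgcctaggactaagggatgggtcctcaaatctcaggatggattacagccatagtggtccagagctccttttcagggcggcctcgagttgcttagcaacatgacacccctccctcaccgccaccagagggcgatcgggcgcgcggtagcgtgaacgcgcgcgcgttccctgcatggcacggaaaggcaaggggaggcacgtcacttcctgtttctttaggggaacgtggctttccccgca
Plagl1, chr10:13090582-13090881 (+ strand): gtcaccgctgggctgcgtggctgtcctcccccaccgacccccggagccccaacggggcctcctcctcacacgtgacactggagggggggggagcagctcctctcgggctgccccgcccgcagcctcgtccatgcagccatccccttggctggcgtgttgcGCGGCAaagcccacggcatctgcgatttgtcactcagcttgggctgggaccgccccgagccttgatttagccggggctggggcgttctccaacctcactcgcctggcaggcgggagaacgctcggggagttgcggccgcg
Nnat, chr2:157559828-157560127 (+ strand): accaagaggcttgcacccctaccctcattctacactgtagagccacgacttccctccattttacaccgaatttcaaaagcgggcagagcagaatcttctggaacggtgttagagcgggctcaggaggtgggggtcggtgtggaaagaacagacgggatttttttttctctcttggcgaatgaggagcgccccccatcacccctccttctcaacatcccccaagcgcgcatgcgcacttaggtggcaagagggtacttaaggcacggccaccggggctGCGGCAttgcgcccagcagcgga
The Mcts2, Plagl1 and Nnat windows each held 1 match and the H13 window, the host promoter, held none. The window of Peg3, a gene also called in EBs, is not shown and held 0 matches. Over the tested members 23 had windows, 36 in all, of which 11 held the hexamer on either strand (30.6%, in 10 genes, with 2 overlapping Mest windows among them). Of all 32851 RefSeq windows of this length 11.6% held it. The members' windows were also richer in CpG, with a median of 15 CpG against 7 over all windows, and a match is a string of letters, not a binding site.

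The growth genes of distal mouse chromosome 7 differed from one another. Igf2, a paternally expressed fetal growth factor, read 12.36 and 12.25 in EB HP1βKO, 12.18 and 12.12 in EB HP1αKO and 11.53 and 11.58 in EB WT. It rose in both knockouts, by 0.75 ± 0.09 (adjusted p = 0.00113) and 0.59 ± 0.09 (adjusted p = 0.00540), and the knockouts themselves differed by 0.15 ± 0.09, which did not pass (adjusted p = 0.260). Without EB HP1αKO 1 the HP1αKO call was lost (adjusted p = 0.0695). Phlda2, a maternally expressed protein that restrains placental growth, read 9.96 and 9.63 in EB HP1βKO, 8.16 and 8.14 in EB HP1αKO and 9.46 and 9.73 in EB WT. It fell 2.72-fold in HP1αKO EBs (-1.44 ± 0.14, adjusted p = 0.000903), while the difference of 0.20 ± 0.14 in HP1βKO did not pass.

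Cdkn1c, the maternally expressed cyclin-dependent kinase inhibitor of the same Kcnq1 domain, lay at 10.74 and 10.71 in EB HP1βKO, 11.05 and 11.07 in EB HP1αKO and 10.96 and 11.0 in EB WT. Both HP1βKO arrays were below all 4 others. The difference passed against HP1αKO (-0.34 ± 0.08, adjusted p = 0.0229) and not against WT (-0.26 ± 0.08, adjusted p = 0.0622). Osbpl5, an oxysterol-binding protein-like gene imprinted in mouse placenta, read 6.46 and 6.30 in EB HP1βKO, 6.08 and 5.76 in EB HP1αKO and 5.65 and 5.73 in EB WT, higher in HP1βKO than in WT by 0.69 ± 0.12 (adjusted p = 0.00792). Slc22a18, a transporter-like gene, read 5.63 and 5.80 in EB HP1βKO, 5.17 and 5.14 in EB HP1αKO and 5.48 and 4.99 in EB WT, near the floor throughout. It passed between the knockouts alone (0.56 ± 0.15, adjusted p = 0.0408), a call lost with any 1 of those 4 arrays left out. Cd81, a tetraspanin, ranged from 11.07 to 11.39 in EBs and was called in none of the 3 EB comparisons.

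In the Peg10 cluster, Peg10 and Asb4 were higher and Sgce lower in HP1βKO EBs than in EB WT. Peg10, a paternally expressed retrotransposon-derived gene that mice need to form a placenta, read 11.88 and 11.81 in EB HP1βKO, 10.70 and 10.65 in EB HP1αKO and 10.94 and 10.96 in EB WT. It rose by 0.89 ± 0.08 in HP1βKO (adjusted p = 0.000366) and differed by -0.27 ± 0.08 in HP1αKO (adjusted p = 0.0719). Sgce, the epsilon-sarcoglycan gene that starts head to head with Peg10 and is also paternally expressed, read 8.67 and 8.44 in EB HP1βKO, 8.72 and 8.69 in EB HP1αKO and 8.91 and 9.13 in EB WT. It fell by 0.46 in HP1βKO (± 0.11, adjusted p = 0.0279), with all 4 knockout arrays below both WT arrays, but the call was lost without HP1βKO 2 or without WT 2. Asb4, a maternally expressed ankyrin repeat protein, read 8.73 and 8.54 in EB HP1βKO, 8.90 and 8.92 in EB HP1αKO and 8.02 and 8.22 in EB WT. It rose in HP1βKO (0.52 ± 0.11, adjusted p = 0.0135) and in HP1αKO (0.79 ± 0.11, adjusted p = 0.00356), the HP1βKO call being lost without HP1βKO 1 or without WT 1.

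Of the Peg3 domain, Peg3, a paternally expressed zinc finger gene, read 11.28 and 11.20 in EB HP1βKO, 10.57 and 10.62 in EB HP1αKO and 10.94 and 10.95 in EB WT. WT lay between the knockouts, as for Plagl1, with 0.30 ± 0.08 in HP1βKO (adjusted p = 0.0440) and -0.35 ± 0.08 in HP1αKO (adjusted p = 0.0341). Each of these calls was lost with any 1 array left out, whereas the difference between the knockouts, 0.65 ± 0.08 (adjusted p = 0.00149), was kept in all 4 such fits. Zim1, its maternally expressed zinc finger neighbour, read 7.61 and 7.52 in EB HP1βKO, 7.00 and 7.07 in EB HP1αKO and 6.92 and 7.06 in EB WT. It rose in HP1βKO (0.58 ± 0.09, adjusted p = 0.00433) and differed by 0.04 ± 0.09 in HP1αKO.

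Of 4 tested genes of the Snrpn (Prader-Willi) domain, all paternally expressed, 0 were called in HP1βKO EBs and 3 in HP1αKO EBs. The shares called over all genes were 18.8% and 12.1%. Ndn, which encodes the MAGE protein necdin, read 10.45 and 10.45 in EB HP1βKO, 10.74 and 10.72 in EB HP1αKO and 10.35 and 10.44 in EB WT, a difference of 0.33 ± 0.08 in HP1αKO (adjusted p = 0.0399). Magel2, of the same family, read 4.95 and 5.21 in EB HP1βKO, 5.24 and 5.44 in EB HP1αKO and 4.86 and 4.82 in EB WT, all below the floor, so its call in HP1αKO (adjusted p = 0.0315) carries no fold. Mkrn3, a makorin ring finger gene, read 5.63 and 5.71 in EB HP1βKO, 6.02 and 6.07 in EB HP1αKO and 5.50 and 5.66 in EB WT, higher by 0.47 ± 0.09 in HP1αKO (adjusted p = 0.0175). Between the knockouts the test passed for Mkrn3 (-0.38 ± 0.09, adjusted p = 0.0261) and not for Ndn (-0.28 ± 0.08, adjusted p = 0.0527) or Magel2 (-0.26 ± 0.12, adjusted p = 0.159). Peg12, of the Frat family, ranged from 6.43 to 6.75 in EBs and was not called. With any 1 array left out the Ndn and Magel2 calls were lost, and that of Mkrn3 was kept in 1 of 4 fits against WT and in 0 of 4 between the knockouts.

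Mest, a paternally expressed hydrolase-fold gene, read 12.26 and 12.10 in EB HP1βKO, 12.06 and 12.07 in EB HP1αKO and 11.78 and 11.89 in EB WT. It rose in HP1βKO (0.34 ± 0.09, adjusted p = 0.0412), kept in 1 of the 4 fits with an array left out, and its convergent neighbour Copg2, a coatomer subunit, ranged from 9.02 to 9.28 in EBs and was not called. Impact, a regulator of the eIF2 kinase GCN2 that is paternally expressed in mouse, read 10.67 and 10.52 in EB HP1βKO, 10.22 and 10.20 in EB HP1αKO and 10.14 and 10.26 in EB WT. It was higher in HP1βKO than in WT by 0.40 ± 0.09 (adjusted p = 0.0239) and than in HP1αKO by 0.39 ± 0.09 (adjusted p = 0.0247), and the call against WT was lost without HP1βKO 1 or without WT 1. Slc38a4, an amino acid transporter of placenta and liver, read 11.75 and 11.66 in EB HP1βKO, 11.39 and 11.30 in EB HP1αKO and 11.48 and 11.45 in EB WT, and was called between the knockouts (0.36 ± 0.09, adjusted p = 0.0245). Between the knockouts the calls of Mcts2, Impact, Slc38a4, Cdkn1c and Osbpl5 were each kept in 1 of the 4 fits with an array left out. Commd1, the gene whose intron holds Zrsr1, ranged from 6.02 to 6.27 in EBs and Zdbf2, a zinc finger gene, from 7.67 to 7.97, and neither was called.

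Ddc, dopa decarboxylase, whose imprinted paternal transcript is known from the developing mouse heart, had the other large rise. It read 7.83 and 7.55 in EB HP1βKO, 6.64 and 6.68 in EB HP1αKO and 5.75 and 5.76 in EB WT, and the 3 groups did not overlap. It rose 3.83-fold in HP1βKO (1.94 ± 0.11, adjusted p = 3.33e-05) and 1.87-fold in HP1αKO (0.91 ± 0.11, adjusted p = 0.00222). Cardiac muscle markers, of which 6 of 6 were measured, were lower in HP1βKO EBs for all 6 (summed log2 signal 9.07 to 9.72, against 12.42 to 12.55 in EB WT) and higher for 4 in HP1αKO EBs (13.45 to 13.46). Visceral endoderm markers summed to 11.99 to 12.34 in EB HP1βKO, 11.08 to 11.16 in EB HP1αKO and 11.67 to 11.89 in EB WT, with 2 higher and 2 lower of 8 tested in HP1βKO and 1 higher and 5 lower in HP1αKO. The part of these cell types in the Ddc values was not tested. The sources used here do not name the Ddc transcript that its feature reads.

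Dcn, decorin, a small proteoglycan of connective tissue that is maternally expressed in mouse placenta, read 6.58 and 6.12 in EB HP1βKO, 7.18 and 7.24 in EB HP1αKO and 5.19 and 5.49 in EB WT. It rose 3.66-fold in HP1αKO (1.87 ± 0.16, adjusted p = 0.000629) and 2.01-fold in HP1βKO (1.01 ± 0.16, adjusted p = 0.00500). Since EB WT 1 lay under the floor and EB WT 2 at it, these are bounded as at least 3.30-fold and 1.81-fold with WT set to the floor. Fibroblast and mesenchyme markers, 11 of 12 measured, summed to 12.82 to 12.94 in EB HP1βKO, 12.43 to 12.48 in EB HP1αKO and 11.68 to 11.77 in EB WT. Of the 11, 9 were higher and 0 lower in HP1βKO, and 5 higher and 1 lower in HP1αKO, and 9 passed the floor in each EB library. Between the knockouts Dcn was lower in HP1βKO (-0.87 ± 0.16, adjusted p = 0.00877, a call lost without HP1αKO 2), while the summed marker signal was higher there. Igf2, Mest and Peg3 are also genes of embryonic mesenchyme, and the part of these cells in their differences was not tested.

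**Figure D2:**
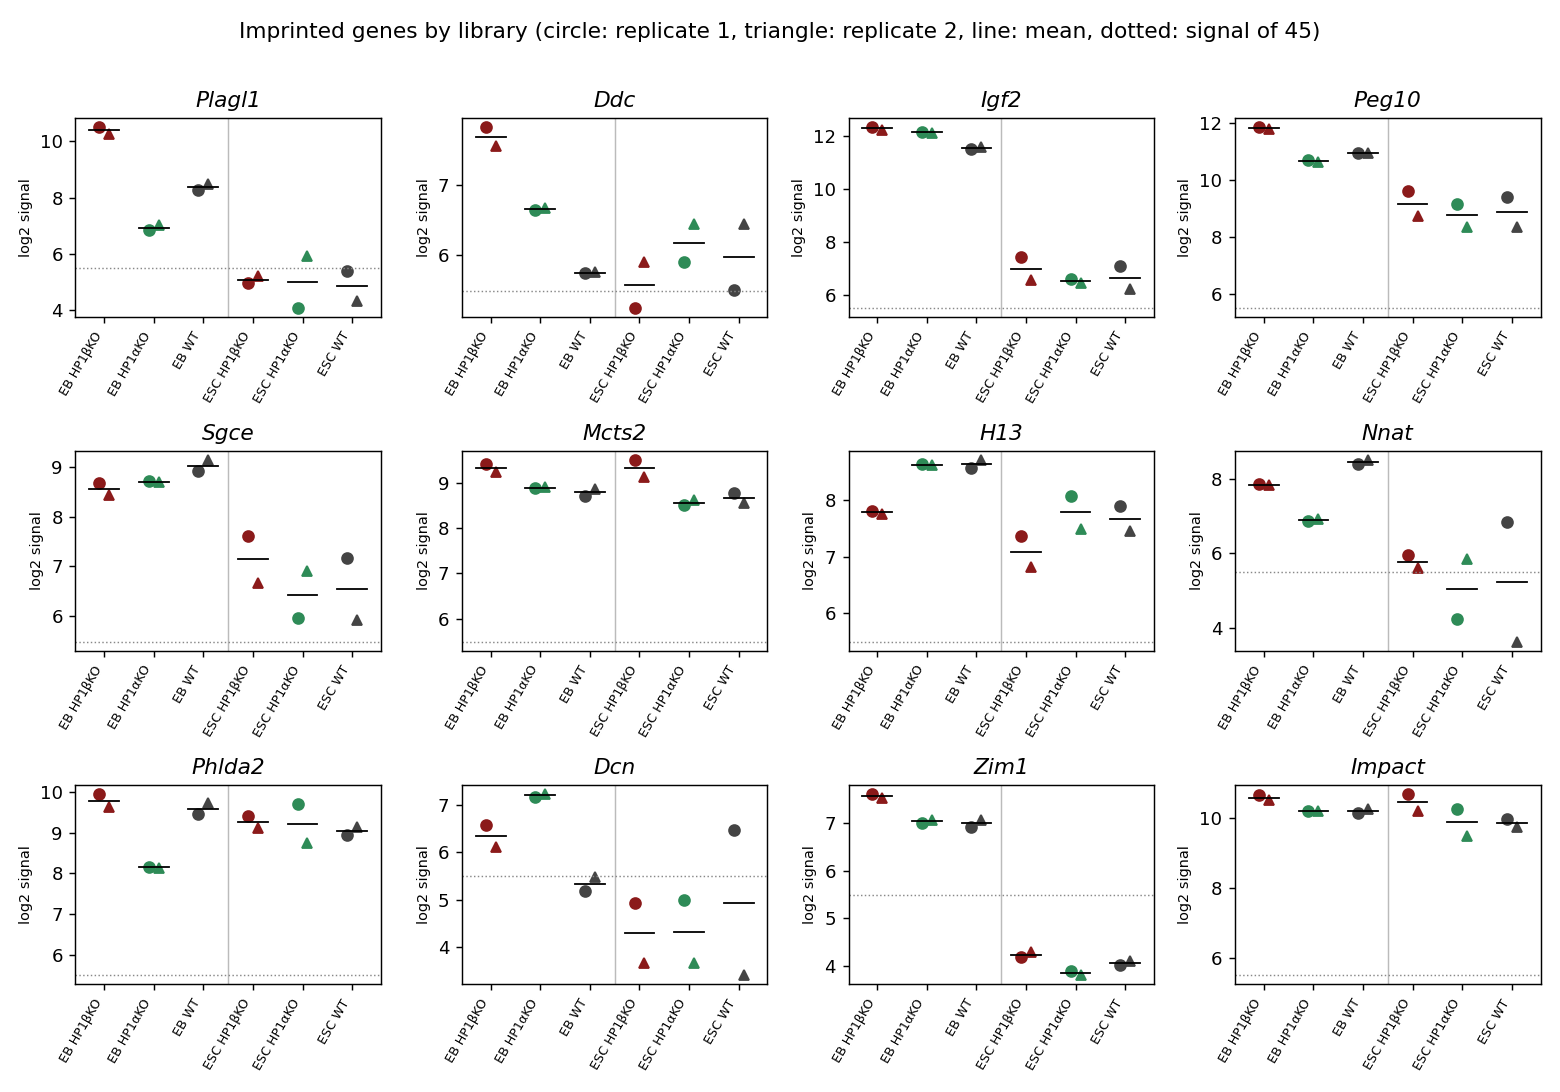
Log2 signals of 12 imprinted genes in every library, EBs left of the grey line and ESCs right of it, with HP1βKO in red, HP1αKO in green and WT in grey, a bar at each group mean and a dotted line at a signal of 45. EB replicates lie close together, Plagl1 in EB WT lies between the knockouts, and Mcts2 and H13 in EB HP1βKO stand apart from the other EB groups. In ESCs the HP1βKO values of both genes lie on the same sides, but neither passed the test there.

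Set directly against EB HP1αKO, EB HP1βKO differed in 16 of 28 tested imprinted genes, 12 higher and 4 lower, which is 57.1% against 19.9% of all genes (8.30% higher and 11.6% lower). The median difference was 0.11, against -0.02 over all genes, and with the spread of all 12 arrays 3 genes were called (Plagl1, Phlda2 and Zim1). With 1 array left out the count was 8 to 12, with 8 without HP1αKO 2, 9 without HP1αKO 1 and 10 without HP1βKO 1. Plagl1 (3.48 ± 0.13) was followed by Phlda2 at 1.64 ± 0.14 (adjusted p = 0.000172), Peg10 at 1.17 ± 0.08 (adjusted p = 7.95e-05), Ddc at 1.03 ± 0.11 (adjusted p = 0.000553) and Nnat at 0.93 ± 0.08 (adjusted p = 0.000255). Peg3, Zim1 and Osbpl5 were higher too, Zim1 by 0.54 ± 0.09 (adjusted p = 0.00559) and Osbpl5 by 0.46 ± 0.12 (adjusted p = 0.0373). The 4 lower genes were Dcn, H13, Mkrn3 and Cdkn1c. By the listed allele, 8 of 16 paternal genes were higher and 1 lower, and 4 of 12 maternal genes were higher and 3 lower. Pluripotency markers were higher for 5 and lower for 1 of 8 in HP1βKO against HP1αKO EBs (median 1.98), and against EB WT 5 were higher and 1 lower in HP1βKO (0.70) and 1 higher and 5 lower in HP1αKO (-1.02). Their summed log2 signal was 10.87 to 11.10 in EB HP1βKO, 10.69 to 10.75 in EB HP1αKO and 10.37 to 10.61 in EB WT. The HP1αKO sum thus lay above that of EB WT although 5 of the 8 markers were lower there. Sox2 read 9.98 and 9.95 in EB HP1αKO, against 8.83 and 9.09 in EB WT. The part of these markers in the differences was not tested.

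Factors that keep or erase imprints were read from a list of 30, of which 29 were tested. In EB HP1βKO 4 were higher than in EB WT and 3 lower, near the share of 18.8% called over all genes. Those higher were Zfp57 (0.41 ± 0.12, adjusted p = 0.0474), the de novo methyltransferase Dnmt3a (0.42 ± 0.08, adjusted p = 0.0118), the methylcytosine dioxygenase Tet2 (0.56 ± 0.12, adjusted p = 0.0155) and Zfp42 (0.66 ± 0.15, adjusted p = 0.0194), the pluripotency factor REX1. Dnmt3b (-0.62 ± 0.09, adjusted p = 0.00306), the histone demethylase Kdm1b (-0.44 ± 0.09, adjusted p = 0.0135) and Cbx1 itself were lower. In EB HP1αKO 0 were higher and 6 lower than in EB WT (7.04% and 5.09% over all genes), namely Zfp42 (-1.71 ± 0.15, adjusted p = 0.000629), Dnmt3l (-1.06 ± 0.10, adjusted p = 0.000967), Tet1 (-0.50 ± 0.11, adjusted p = 0.0273), Dnmt3b (-0.40 ± 0.09, adjusted p = 0.0282), Ctcf (-0.32 ± 0.08, adjusted p = 0.0462) and Cbx5 itself. In EB HP1βKO against EB HP1αKO 7 were higher and 2 lower, against 19.9% of all genes called (8.30% higher and 11.6% lower). Those higher were Zfp42 (by 2.38), Cbx5 (1.09), Dnmt3l (1.04), Tet2 (0.76), Zfp57 (0.50), Tet1 (0.46) and Dnmt3a (0.32). Kdm1b (-0.56) and Cbx1 (-1.95) were lower. Dnmt3l read 4.96 and 4.74 in EB HP1βKO, 3.8 and 3.81 in EB HP1αKO and 4.79 and 4.94 in EB WT. All lay below the floor, so its calls carry no fold. Zfp42 read 6.26 and 5.83 in EB HP1βKO, 3.7 and 3.64 in EB HP1αKO and 5.27 and 5.49 in EB WT. Among EBs it passed the floor in HP1βKO alone, so the sizes of its differences are not set. Tet2 lay near the floor in EB HP1αKO and EB WT (5.12 to 5.53).

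Zfp57 read 7.92 and 7.91 in EB HP1βKO, 7.58 and 7.25 in EB HP1αKO and 7.51 and 7.5 in EB WT. Trim28 (0.14 ± 0.08), Setdb1 (-0.24 ± 0.09), Dnmt1 (-0.03 ± 0.08) and Uhrf1 (0.01 ± 0.12), the core of the machinery that holds the mark, did not pass in HP1βKO EBs. Zfp42 is on the pluripotency list too, of which 5 of 8 were higher in these EBs.

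Genes that neighbour the imprinted clusters were read from a list of 28, of which 24 were measured and 19 tested. In EB HP1βKO 2 were higher than in EB WT and 3 lower, and in EB HP1αKO 1 was higher and 1 lower, near the shares of 18.8% and 12.1% called over all genes. Lsp1, a leukocyte-specific protein gene beside the Igf2 domain, read 9.67 and 9.48 in EB HP1βKO, 7.79 and 7.97 in EB HP1αKO and 7.10 and 7.12 in EB WT (2.47 ± 0.10, adjusted p = 1.31e-05 in HP1βKO, and 0.78 ± 0.10, adjusted p = 0.00342 in HP1αKO). Casd1, next to Sgce, was higher in HP1βKO (0.49 ± 0.10, adjusted p = 0.0123). Tnfrsf22 was lower in both knockouts, with -0.76 ± 0.11 (adjusted p = 0.00347) in HP1βKO and -0.52 ± 0.11 (adjusted p = 0.0253) in HP1αKO. Calcr (-0.39 ± 0.09, adjusted p = 0.0256) and Inpp5f (-0.62 ± 0.13, adjusted p = 0.0156) were lower in HP1βKO. Calcr read 4.23 and 4.4 in EB HP1βKO and 4.66 and 4.75 in EB WT, all below the floor, so its call carries no fold. Tnfrsf22 lay under the floor on the arrays of both EB knockouts (4.93 to 5.38) and read 5.86 and 5.76 in EB WT. The size of its falls is therefore not set. The median neighbour differed by 0.02 in HP1βKO and by 0.05 in HP1αKO.

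In ESCs no imprinted gene passed the test. Of the 28 tested, 0 were called in HP1βKO against WT, in HP1αKO against WT or in HP1βKO against HP1αKO with limma, and over all genes tested 0.00%, 0.00% and 0.00% were called. At an unadjusted p under 0.05 the members numbered 2, 0 and 1, and all genes 186, 17 and 163. The pairwise rule of a 1.5-fold change in every pair of arrays also gave 0 members in each comparison, as did the fits without the libraries labelled WT 2 and HP1αKO 2. The members' replicates differed by a median of 0.31 in ESC HP1βKO, 0.56 in ESC HP1αKO and 0.49 in ESC WT, and by 0.13, 0.05 and 0.11 in the same genotypes as EBs.

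Between ESC HP1βKO and ESC WT 8 of the 28 members did not overlap, near the 25.3% of all genes that did not. Among them the Mcts2 and H13 values of HP1βKO lay on the same sides as in EBs. Mcts2 read 9.49 and 9.13 in ESC HP1βKO, 8.5 and 8.62 in ESC HP1αKO and 8.76 and 8.55 in ESC WT, so that both HP1βKO libraries were above all 4 others (0.65 ± 0.21 against WT, adjusted p = 1.00). H13 read 7.36 and 6.81 in ESC HP1βKO, 8.08 and 7.49 in ESC HP1αKO and 7.90 and 7.45 in ESC WT (-0.59 ± 0.31, adjusted p = 1.00), again without overlap. Without the libraries labelled WT 2 and HP1αKO 2 the differences were 0.55 for Mcts2 and -0.82 for H13, and with 1 library left out they ranged from 0.47 to 0.83 and from -0.87 to -0.32. Against the 4 other ESC libraries pooled, which does not depend on their labels, they were 0.70 and -0.65, with no call over all genes.

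Cdkn1c read 7.97 and 7.5 in ESC HP1βKO, 8.79 and 8.5 in ESC HP1αKO and 9.42 and 8.14 in ESC WT, with HP1βKO below all 4 others (-1.04 ± 0.43 against WT, adjusted p = 1.00). Impact read 10.70 and 10.21 in ESC HP1βKO, 10.28 and 9.49 in ESC HP1αKO and 9.98 and 9.74 in ESC WT, where the HP1βKO and HP1αKO libraries overlapped.

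Several imprinted genes followed the replicate number of the ESC libraries. Of the 28, 10 were higher in number 1 than in number 2 in all 3 genotypes (35.7%, against 18.5% of all genes tested) and 4 were lower (14.3%, against 23.2%). The 10 were Igf2, Cdkn1c, Peg3, Ndn, Magel2, Peg10, H13, Commd1, Impact and Dcn. Dcn spanned the most, at 4.93 and 3.65 in ESC HP1βKO, 4.99 and 3.65 in ESC HP1αKO and 6.47 and 3.40 in ESC WT, where only WT 1 passed the floor. Ndn read 8.16 and 7.54 in ESC HP1βKO, 7.82 and 7.24 in ESC HP1αKO and 8.45 and 6.93 in ESC WT. Peg10 read 9.61 and 8.73 in ESC HP1βKO, 9.17 and 8.35 in ESC HP1αKO and 9.39 and 8.33 in ESC WT. The summed fibroblast marker signal ran alike, at 9.89 and 9.03 in ESC HP1βKO, 10.32 and 8.90 in ESC HP1αKO and 10.97 and 8.75 in ESC WT, and between 5 and 11 of 11 markers passed the floor. The part of fibroblasts in these values was not tested. The 4 genes that ran the other way were Slc22a18, Blcap, Ddc and Slc38a4.

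Nnat, Plagl1 and Sgce did not follow the number. In 5 of the 28 members, these 3, Asb4 and Mcts2, the libraries labelled HP1αKO 2 and WT 1 were both above those labelled HP1αKO 1 and WT 2, the order of Cbx5, which is 17.9% against 15.5% of all genes. Nnat signals were 5.85 in HP1αKO 2 and 6.83 in WT 1, against 4.25 in HP1αKO 1 and 3.64 in WT 2. Plagl1 read 5.92 in HP1αKO 2 and 5.40 in WT 1, against 4.07 in HP1αKO 1 and 4.32 in WT 2. Sgce read 6.90 in HP1αKO 2 and 7.18 in WT 1, against 5.97 in HP1αKO 1 and 5.92 in WT 2. In ESC HP1βKO, Nnat was at 5.96 and 5.60, Plagl1 at 4.96 and 5.20 and Sgce at 7.62 and 6.67.

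**Figure D3:**
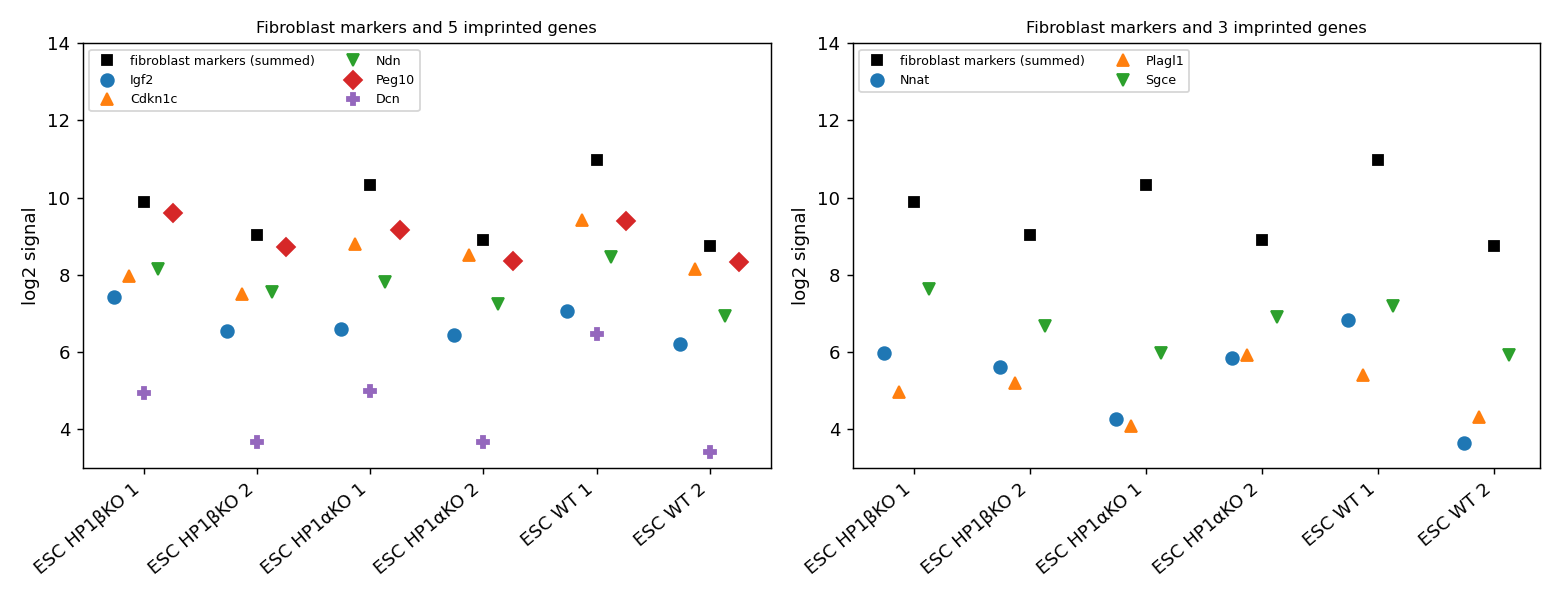
Log2 signals in the 6 ESC libraries for 11 fibroblast markers summed (black squares) and, at left, 5 imprinted genes that were higher in number 1 of each genotype and, at right, 3 that were not. Dcn at left drops with the markers in number 2 of each genotype (3.65, 3.65 and 3.40), while Nnat, Plagl1 and Sgce at right are high in HP1αKO 2 and WT 1.

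EBs were set against ESCs of the same genotype to ask how differentiation changed the imprinted genes. In WT, 15 of 28 were higher in EBs than in ESCs and 0 lower, which is 53.6% against 36.2% of all genes (22.0% higher and 14.2% lower), with a median difference of 0.65 against 0.05. In HP1αKO 16 were higher and 2 lower (64.3% against 41.6%, 25.0% higher and 16.5% lower), and in HP1βKO 17 were higher and 0 lower (60.7% against 37.1%, 22.0% higher and 15.1% lower). Zim1, Asb4, Mkrn3 and Osbpl5 passed the floor on the 6 EB arrays alone and were tested through them, so these counts are a description and support nothing. Without the libraries labelled WT 2 and HP1αKO 2 the Igf2 difference was 4.49 in WT and 5.57 in HP1αKO.

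Igf2 read 12.36 and 12.25 in EB HP1βKO against 7.42 and 6.54 in ESC HP1βKO, 12.18 and 12.12 in EB HP1αKO against 6.58 and 6.44 in ESC HP1αKO, and 11.53 and 11.58 in EB WT against 7.07 and 6.21 in ESC WT. The WT difference of 4.92 ± 0.31 is 30.2-fold (adjusted p = 5.66e-06), and those of HP1αKO and HP1βKO were 5.64 ± 0.31 and 5.32 ± 0.31. Asb4 followed in WT at 3.61 ± 0.19 (8.02 and 8.22 in EBs, against 4.76 and 4.27 in ESCs), then Plagl1 at 3.53 ± 0.52 (8.27 and 8.5 in EBs, against 5.40 and 4.32 in ESCs), Peg3 at 3.29 ± 0.19 (10.94 and 10.95 in EBs, against 7.85 and 7.45 in ESCs) and Nnat at 3.20 ± 0.84 (8.39 and 8.49 in EBs, against 6.83 and 3.64 in ESCs). In every 1 of these the EB arrays were above the ESC arrays of the same genotype. Asb4 and Plagl1 lay under the floor on both ESC WT arrays and Nnat on 1, so with the floor in place of such values EB WT was at least 6.18-fold higher for Asb4 (2.63), 7.42-fold for Plagl1 (2.89) and 4.85-fold for Nnat (2.28), and the order among these differences is not set.

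Plagl1 had an EB minus ESC difference of 5.32 ± 0.52 in HP1βKO, 1.93 ± 0.52 in HP1αKO and 3.53 ± 0.52 in WT. Only 1 ESC library, that labelled HP1αKO 2, passed the floor, and with the floor in place of lower values the differences were at least 4.91 in HP1βKO, 1.22 in HP1αKO and 2.89 in WT. The HP1αKO call was lost without ESC HP1αKO 1 and without either EB HP1αKO array, and without the libraries labelled WT 2 and HP1αKO 2 the values were 2.86 in HP1αKO and 2.99 in WT. Differences between the genotypes in this step were tested for HP1βKO against WT alone. Nnat was called in WT (adjusted p = 0.0163) and not in HP1βKO (2.06) or HP1αKO (1.85), and in WT the difference was 1.61 without the libraries labelled WT 2 and HP1αKO 2. The WT Nnat call was lost without EB WT 1 or without EB WT 2. Zim1 (2.93 ± 0.12), Ndn (2.70 ± 0.42), Mest (2.61 ± 0.24), Sgce (2.47 ± 0.44), Cdkn1c (2.20 ± 0.34) and Peg10 (2.09 ± 0.38) rose in WT as well, followed by Slc38a4 (1.23 ± 0.17), H13 (0.97 ± 0.24), Peg12 (0.76 ± 0.20) and Mkrn3 (0.53 ± 0.15). The last 3 of these calls were each kept in only 1 of the 4 fits with a WT array left out. With ESC values under the floor set to it, Zim1 was at least 2.82-fold and Mkrn3 at least 1.06-fold higher in EB WT. Without the libraries labelled WT 2 and HP1αKO 2 the WT differences were 2.96 for Zim1, 1.94 for Ndn, 2.31 for Mest and 1.84 for Sgce. They were 1.56 for Cdkn1c, 1.56 for Peg10, 1.37 for Slc38a4, 0.74 for H13, 0.44 for Peg12 and 0.71 for Mkrn3.

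Lower calls in EBs were made in HP1αKO. There Phlda2 fell by 1.08 (± 0.28, adjusted p = 0.0133) and Slc22a18 by 0.97 (± 0.26, adjusted p = 0.0163), with Phlda2 at 8.16 and 8.14 in EBs, against 9.72 and 8.74 in ESCs. Slc22a18, under the floor on both EB HP1αKO arrays, was at least 1.55-fold lower there, and differed by -0.70 in WT (adjusted p = 0.0656), and whether the genotypes differ in this was not tested. The Phlda2 call was lost without ESC HP1αKO 1, those of Slc22a18 and Dcn without ESC HP1αKO 2, and all 3 without either EB HP1αKO array. Dcn rose in HP1αKO (2.89 ± 0.85, adjusted p = 0.0223) and read 2.06 in HP1βKO and 0.41 in WT, neither of which passed. Without the libraries labelled WT 2 and HP1αKO 2 the HP1αKO differences were -1.57 for Phlda2, -0.66 for Slc22a18 and 2.23 for Dcn. In HP1βKO, Ddc (2.11 ± 0.32, adjusted p = 0.00106) and Cd81 (0.56 ± 0.18, adjusted p = 0.0334) rose, the Cd81 call being lost with any 1 array left out. Osbpl5 differed by 1.10 ± 0.15 in HP1βKO and 0.52 ± 0.15 in HP1αKO, the latter call kept in 2 of 4 such fits. It was tested through its EB values, with ESC values under the floor in both knockouts, so these calls are a description. With the floor in place of those values the differences were at least 0.89 and 0.43. Mcts2, Impact, Copg2, Blcap, Commd1 and Zdbf2 were called in none of the 3 genotypes.

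**Figure D4:**
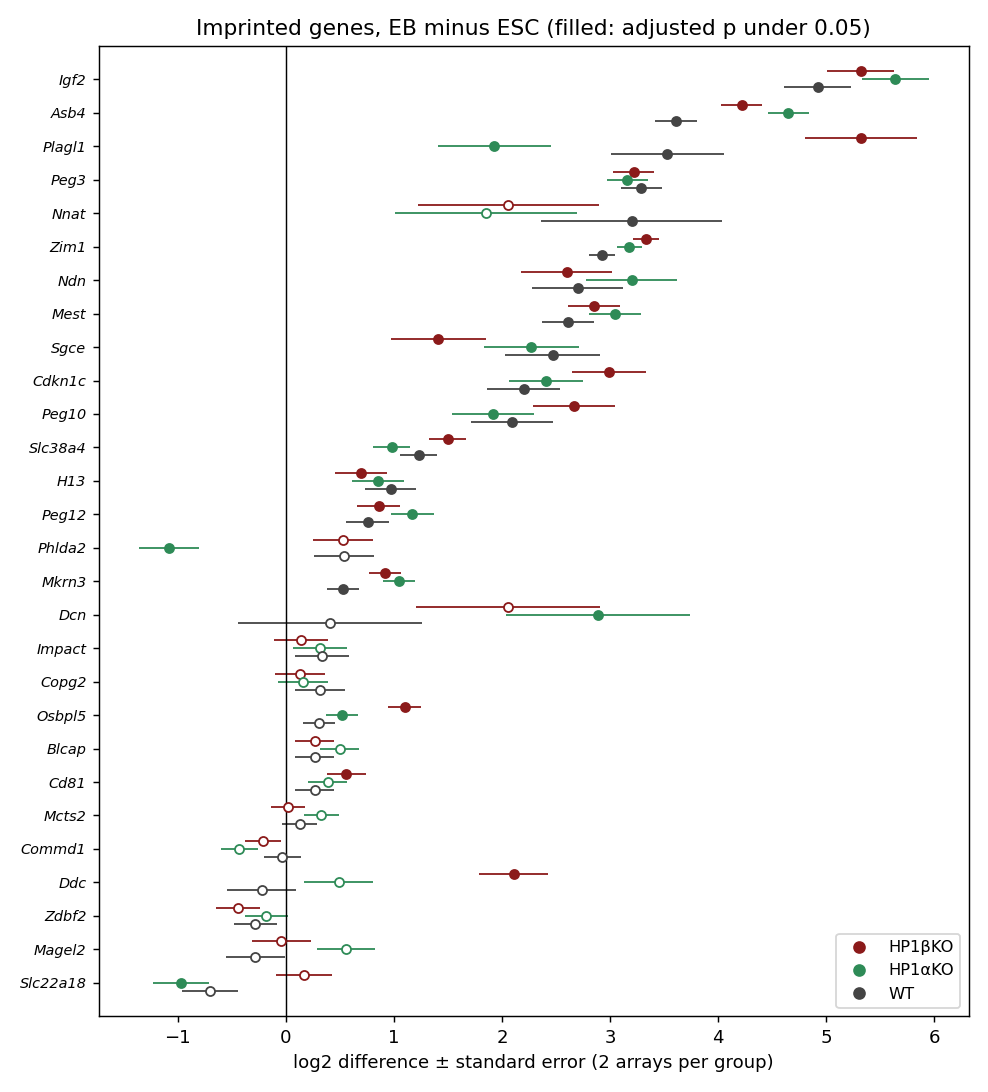
Log2 differences between EBs and ESCs of the 28 tested imprinted genes in HP1βKO (red), HP1αKO (green) and WT (grey), with standard errors (2 arrays per group) and filled points where the adjusted p is under 0.05. Igf2 and Asb4 lie far to the right in all 3 genotypes, and Plagl1 spreads from 1.93 in HP1αKO to 5.32 in HP1βKO.

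In WT 2 imprint regulators were higher in EBs than in ESCs and 10 lower of 29. Over all genes tested 36.2% were called, 22.0% higher and 14.2% lower. The germ-line cofactor Dnmt3l (-4.19 ± 0.27, adjusted p = 8.21e-06) and Zfp42 (-4.23 ± 0.34, adjusted p = 3.07e-05) had the largest fitted falls. Zfp57 fell by 2.12 (± 0.42, adjusted p = 0.00466), Dppa3 by 2.04 (± 0.37, adjusted p = 0.00303) and Tet1 by 2.33 (± 0.46, adjusted p = 0.00465), while Tet3 rose by 1.5 ± 0.31 (adjusted p = 0.00597). In EB WT, Dnmt3l (4.79 and 4.94), Zfp42 (5.27 and 5.49) and Dppa3 (3.95 and 4.36) lay at or under the floor. So did Tet2 in EB WT 1 (5.21), Dppa3 in ESC WT 1 (5.48) and Tet3 in ESC WT (4.91 and 5.05). The sizes of these differences and their order are therefore not set. Dnmt3b (-1.97), Tet2 (-1.38), Eed (-1.27), Hells (-0.97) and Trim28 (-0.58) were lower too, and Arid4b (0.67) was higher.

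The HP1βKO effect itself was compared between states, as the difference between HP1βKO and WT in EBs minus that in ESCs. Only Ddc passed among the 28 (3.57%, against 1.30% of all genes), with 2.34 ± 0.45 (adjusted p = 0.0451). Ddc read 5.25 and 5.90 in ESC HP1βKO and 5.50 and 6.45 in ESC WT, where the groups overlapped. The median over the 28 was 0.24, against -0.00 over all genes. For Plagl1 the value was 1.79 and for Mcts2 -0.11, and neither passed (adjusted p = 0.380 and 0.914). The Ddc call was lost without ESC HP1βKO 1 or any 1 of the 4 arrays of EB HP1βKO and EB WT, with 1.86 to 2.81 over the 8 such fits. Without the libraries labelled WT 2 and HP1αKO 2 it was 1.86.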

How the data were processed

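The log2 signals deposited by the authors came from RMA in Affymetrix Expression Console, which corrects background, quantile-normalizes and summarizes probes, and were used unchanged. The sources used here give no versions. The table holds 35556 features on 12 arrays, of which 21789 carry 1 gene symbol, 1621 several and 12146 none in the Mouse Gene 1.0 ST annotation (the paper names an exon array). A gene number matched a reference table for 21698, and 0 symbols changed. The highest-mean feature per symbol was kept (19938 genes), and 10880 genes over a signal of 45 on at least 1 array were tested. Each imprinted gene had 1 feature. The number of arrays limits the precision.

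Genes were fitted with limma 3.58.1 in R 4.3.3 (lmFit, eBayes, Benjamini-Hochberg over all 10880 genes, threshold 0.05). Comparisons within a state used the 6 arrays of that state, because replicate spread differed between ESCs and EBs and a spread shared over 12 arrays is then too wide for EBs and too narrow for ESCs. Comparisons across states used all 12. Scripts were tested on simulated data. Members and lists were chosen with earlier results of these data known. Values per library are given for members called between genotypes in EBs, for Mcts2, H13, Cdkn1c and Impact in ESCs, for several that followed the ESC library number or the order of Cbx5, and for the 5 largest differences between EB WT and ESC WT. Listed regulators are named where called between genotypes in EBs. Neighbours, regulators called between EB WT and ESC WT, and Trim28, Setdb1, Dnmt1 and Uhrf1 in EBs were named after their values were seen. Bounds set values under the floor to it. Same-numbered ESC libraries deviated together (correlations of replicate differences 0.401, 0.497 and 0.300), which EB libraries did not (0.112, -0.454 and -0.092). The alternatives were a 12-array fit, floors of 100 or none, median centring, a replicate block, array weights, a pairwise 1.5-fold rule, compared groups only, single libraries left out, and both ESC libraries left out whose Cbx5 opposed the label. Crossed EB numbers and pooled ESC controls were added after seeing the data. Promoter windows come from RefSeq.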

Additional observations from a re-analysis of the deposited data

Results flagged for a closer look

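The HP1βKO effect on Ddc differed between EBs and ESCs by 2.34 ± 0.45 (log2, limma interaction term, adjusted p = 0.0451). Ddc rose by 1.94 in EB HP1βKO against EB WT and differed by -0.40 ± 0.40 in ESC HP1βKO against ESC WT, whose libraries overlapped. The call was kept in 3 of 8 fits with a library left out.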

How the results depend on the processing

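Among the differences that were followed, no sign reversed under any alternative run. Those followed were the calls of the main fit, and Mcts2 and H13 in ESC HP1βKO against ESC WT. Other differences that did not pass the test were not followed. Over 1012 values, 285 kept their side of the threshold and 99 lost it with a library left out, against 546 and 82 under the other alternatives. With 12 arrays in 1 fit the imprinted genes called were 3 in EB HP1βKO against WT (Ddc, Osbpl5 and Zim1), 1 in EB HP1αKO against WT (Phlda2) and 3 in EB HP1βKO against HP1αKO (Plagl1, Phlda2 and Zim1), in place of 15, 11 and 16. The pairwise rule gave 6, 6 and 7. Between the EB knockouts, no floor gave 10 and the replicate block 10. For the HP1βKO effect between states, 0 were called with compared groups only, 0 at a floor of 100 and 5 without both opposed ESC libraries, in place of 1.

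With 1 library left out the counts ranged from 11 to 13 (EB HP1βKO against WT), 6 to 8 (EB HP1αKO against WT), 8 to 12 (EB HP1βKO against HP1αKO), 11 to 16, 12 to 17 and 13 to 15 (EBs against ESCs in WT, HP1αKO and HP1βKO) and 0 to 2 (HP1βKO effect between states). The lone array left in a group was assumed to vary like the other groups. The HP1αKO count was 6 without EB HP1αKO 1, 7 without EB HP1αKO 2 and 7 without EB WT 1. The count between the EB knockouts was 8 without HP1αKO 2, 9 without HP1αKO 1 and 10 without HP1βKO 1. The ESC comparisons gave 0 under every alternative. The replicate block gave 11 in EB HP1βKO and 9 in EB HP1αKO against WT, and 16 in EB HP1βKO with crossed numbers. Another feature per gene could not be tried, since each had 1.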
